A study of Mus musculus with 4 samples.

Results

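The CCN family is a set of secreted matricellular proteins encoded by 6 mouse genes, Ccn1, Ccn2, Ccn3, Ccn4, Ccn5 and Ccn6, known under the older symbols Cyr61, Ctgf, Nov, Wisp1, Wisp2 and Wisp3. These 6 genes were taken by symbol from 22911 genes that could be named on an Agilent mouse array, and they were matched by 7 probes, 2 of them for Ccn4. The family was chosen with its values on these arrays already known, so its levels and ratios are given as a description. RNA came from MC3T3-E1 cells, a clonal osteoblastic line from mouse calvaria, labelled as osteoblasts. The groups were Miglustat at 50 µM, D-PDMP at 10 µM, D-PPMP at 1.0 µM and Control, with 1 array each. Miglustat is an iminosugar, while D-PDMP and D-PPMP are ceramide analogues with the same morpholino core and a decanoyl or a palmitoyl chain. All 3 compounds inhibit glucosylceramide synthase, which adds glucose to ceramide at the start of most glycosphingolipid synthesis, and the study asked which molecules depend on this enzyme in osteoblasts. Cells were replated 4 days after treatment with the inhibitors and harvested 24 h later. The labels do not name the vehicle of the Control, nor whether inhibitor was present after replating. Because the doses differ, the values of the 3 inhibitors are set side by side, and no difference between inhibitors is drawn from them.

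CCN proteins are built from modules that resemble insulin-like growth factor binding proteins, von Willebrand factor type C domains, thrombospondin repeats and a C-terminal cystine knot, the last of which CCN5 lacks. They act outside the cell by binding integrins, heparan sulfate proteoglycans and growth factors, and so change adhesion, matrix production and the response to TGF-beta, BMP and Wnt signals. Ccn1 and Ccn2 are immediate early genes and textbook targets of the coactivators YAP and TAZ with TEAD factors, and Ccn2 is also a target of TGF-beta. In bone, CCN1 and CCN2 are known to favour osteoblast and chondrocyte function, CCN3 to hold back osteoblast differentiation by antagonizing BMP, and CCN4 to be a Wnt-induced promoter of bone formation. Mutations of human CCN6 cause a progressive skeletal dysplasia.

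Promoters of 2 of the 6 genes were found in the RefSeq promoter table for build GRCm38.p6, each running from 250 bases before to 50 bases after the start of transcription. Both are shown, as the windows found: Ccn1 is a TEAD target that stood past 1.5-fold above Control with Miglustat, and Ccn6 was the member not well above background. Both lie on the minus strand, at chr3:145649936-145650235 and chr10:39163745-39164044, and are written 5′ to 3′. Capitals mark, on either strand, the TEAD motif GGAATG, the core TGACG of a cyclic AMP response element, and the TATA box TATAAA.
Ccn1: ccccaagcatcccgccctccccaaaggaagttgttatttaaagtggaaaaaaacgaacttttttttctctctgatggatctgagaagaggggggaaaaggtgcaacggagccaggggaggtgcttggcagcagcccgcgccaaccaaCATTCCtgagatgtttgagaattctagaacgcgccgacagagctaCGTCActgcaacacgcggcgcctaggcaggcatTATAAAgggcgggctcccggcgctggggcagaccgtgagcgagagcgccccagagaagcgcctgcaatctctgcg
Ccn6: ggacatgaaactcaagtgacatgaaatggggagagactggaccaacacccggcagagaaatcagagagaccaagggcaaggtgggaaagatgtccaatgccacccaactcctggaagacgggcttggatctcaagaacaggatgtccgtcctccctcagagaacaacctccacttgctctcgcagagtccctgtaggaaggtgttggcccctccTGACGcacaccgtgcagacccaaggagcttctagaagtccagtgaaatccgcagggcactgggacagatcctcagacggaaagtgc
The Ccn1 window held 1 TEAD motif, on the opposite strand with its first printed base at position -103, 1 response element core at -58 on the opposite strand, and 1 TATA box at -25. The Ccn6 window held 1 such core, at -36, and neither of the other marked motifs. Among 32851 promoter windows of the same length, counting both strands, 14.7% held the TEAD motif, 20.8% the core and 13.6% the TATA box. The AP-1 motif TGANTCA, the TCF/LEF motif CTTTGA and the CArG box of serum response factor were found in neither window, and 7.81%, 16.0% and 1.63% of all windows held them.

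Each array carried 56605 probes outside the controls. Between 57.4% and 62.4% of the probes and between 14393 and 15271 named genes were well above background, the scanner software's call of a signal clearly over its local background, and no spot was saturated. A level is given as log2 of the processed signal minus the 75th percentile of the array. A ratio is the difference of 2 such levels, inhibitor minus Control, and is called past 1.5-fold at 0.585 or more where the gene was well above background on both arrays. Since each group had 1 array, replicate error could not be measured and nothing was tested; how precise a ratio is depends on that number of arrays. The error beside a ratio is the measuring error that the scanner software assigns to the 2 spots, and it covers no difference between cultures. It was 0.204 for every ratio given with an error, so it does not tell 1 CCN probe from another. Repeated spots of bright probes had a smaller spread within arrays, a median SD of 0.029 to 0.037 on the log2 scale. Where 3 ratios of a gene or list follow each other, the first is for Miglustat, the second for D-PDMP and the last for D-PPMP. The probes of CCN genes had 1 spot each. Of 10 osteoblast markers, 7 were well above background on all 4 arrays, among them Runx2, Sp7, Col1a1, Spp1 and Postn, whereas Alpl and Ibsp, defining genes of mature osteoblasts, were so on none and Bglap on 2. The summed signal of the list was 184982 with Miglustat, 174290 with D-PDMP, 163161 with D-PPMP and 173920 in Control. Most of that sum was the collagen genes Col1a1 and Col1a2. The sums of all marker lists are of processed signal, not scaled to the 75th percentile of the array. That percentile was 182.5 in Control and 188.5 to 190.8 with the inhibitors, so small gaps between sums are not read as differences in level. The ratios of Sp7, which encodes a transcription factor of bone-forming cells, were 0.74, 0.02 and -0.44, and those of the matrix phosphoprotein gene Spp1 were -0.66, 0.19 and 0.38. Among 5 markers each of other cells, the chondrocyte genes Sox9 and Col2a1 were well above background on all 4 arrays and Acan and Matn1 on none, and the summed signal of that list was 16878 with Miglustat, 10722 with D-PDMP, 10143 with D-PPMP and 12422 in Control. Nearly all of that sum was the cartilage collagen Col2a1, at ratios of 0.39, -0.28 and -0.35, while Sox9, a cartilage transcription factor, was at -0.03, 0.05 and -0.06. No skeletal muscle marker, 1 endothelial marker (Pecam1), 3 macrophage markers (Cd68, Csf1r and Cd14) and 3 adipocyte markers (Pparg, Fabp4 and Lep) were above background on all 4, while the defining Ptprc, Cdh5, Myod1 and Plin1 were so on none. The summed signals of these 4 lists, inhibitors then Control, were 14.0, 18.0, 17.4 and 10.5 for muscle, 25.2, 29.3, 28.4 and 17.9 for endothelium, 695, 637, 684 and 644 for macrophages, and 132, 119, 119 and 95.8 for adipocytes. Most muscle and endothelial markers were not well above background on all 4 arrays, so nothing is read from differences between those sums. The part of these cell types in the CCN results was not tested, and fewer cells of a type cannot be told apart from less RNA per cell. Ugcg, the gene of the inhibited enzyme, was at ratios of 0.09 for Miglustat, 0.08 for D-PDMP and 0.00 for D-PPMP. The common references Gapdh and Actb were at -0.15, -0.07 and -0.12 and at 0.02, -0.10 and -0.12 in the same order.

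With Miglustat, every measured CCN gene was above Control, and Ccn1, Ccn2 and Ccn3 were past 1.5-fold, at 1.51-fold, 1.69-fold and 1.65-fold. With D-PDMP and with D-PPMP, Ccn3 alone of the family was past the limit, and it was on the other side, 1.91-fold and 1.99-fold below Control. Ccn6 was not well above background on any array, so 5 of the 6 genes were measured. The 3 Miglustat calls among 5 measured genes stand beside 1.57% of 14171 measured genes called higher in that comparison. The single lower call among 5 stands beside 1.2% of 14154 genes with D-PDMP and 1.18% of 14200 with D-PPMP. At any size, 5 of 5 members were above Control with Miglustat, where 44.5% of all genes were above and 55.5% below. With D-PDMP 3 of 5 were below Control, where 49.6% of all genes were above and 50.4% below. With D-PPMP 3 of 5 were below, where 48.5% were above and 51.5% below. No member was past 2-fold, beside 0.388% of all genes for Miglustat, 0.325% for D-PDMP and 0.507% for D-PPMP in either direction. By direction these were 0.212% higher and 0.176% lower for Miglustat, 0.155% and 0.17% for D-PDMP, and 0.303% and 0.204% for D-PPMP. The median ratio of the 5 members was 0.59 for Miglustat, -0.08 for D-PDMP and -0.29 for D-PPMP, where the medians of all measured genes were -0.02, 0.00 and -0.01. The brightest probes of the 5 measured members all had a mean level at least that of Ccn3, so the same shares were taken over the 2817 genes that met this limit, a set chosen after the values were seen. Of these, 0.39% were called higher and 0.106% lower for Miglustat, 0.106% and 0.071% for D-PDMP, and 0.177% and 0.213% for D-PPMP. Above Control were 37% of them for Miglustat, 49.5% for D-PDMP and 37.5% for D-PPMP, and below it 63%, 50.5% and 62.5%. These shares include the values the family was chosen on, and nothing is read from them about the family.

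**Figure D1:**
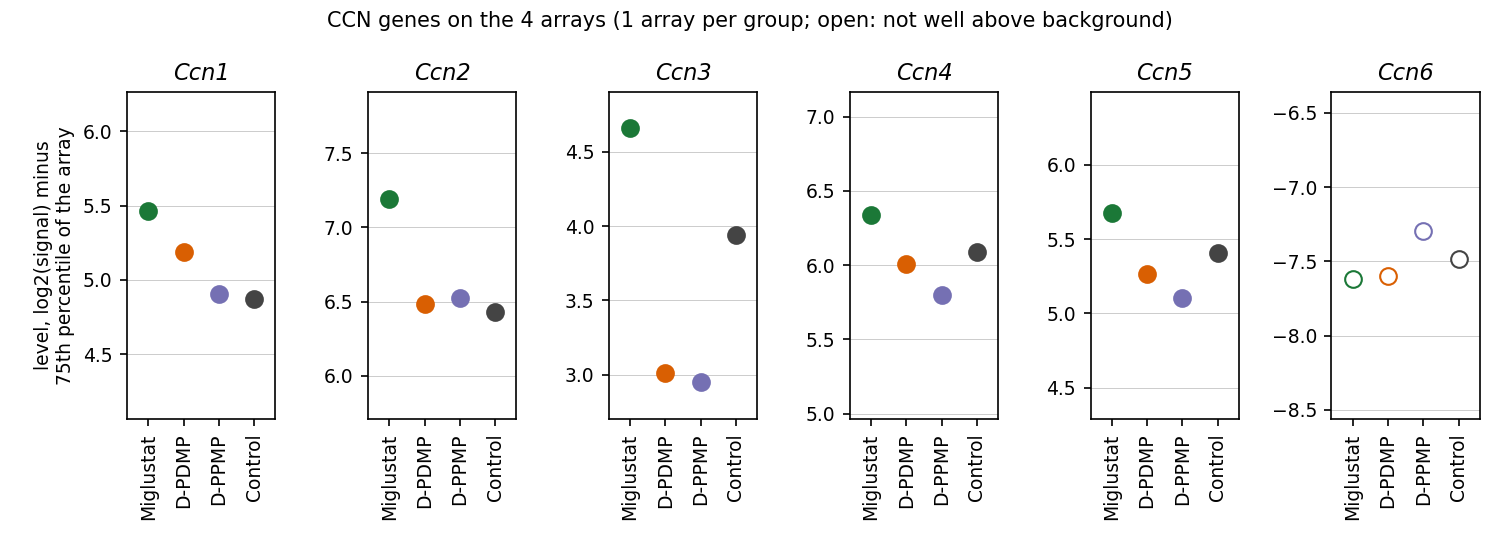
Levels of the 6 CCN genes on the 4 arrays, as log2 of the processed signal minus the 75th percentile of the array; each point is 1 array, each panel spans the same range on the log2 scale, and open points were not well above background. The Miglustat point is the highest in the panels of Ccn1 to Ccn5, and the D-PDMP and D-PPMP points of Ccn3 lie about 1 log2 unit below Control.

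Ccn1 encodes CYR61, an integrin ligand that cells make within minutes of serum or mechanical stimulation. Its level was 5.46 with Miglustat, 5.19 with D-PDMP, 4.91 with D-PPMP and 4.87 in Control. Its ratio over Control was 0.59 ± 0.20 with Miglustat (measuring error), just past the 1.5-fold limit. It was 0.32 ± 0.20 with D-PDMP and 0.04 ± 0.20 with D-PPMP, neither past the limit. In order of level the arrays ran Miglustat, D-PDMP, D-PPMP and Control, and D-PPMP and Control were 0.04 apart, inside the measuring error. The Miglustat ratio was the 210th highest of 14171 measured genes.

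Ccn2 encodes connective tissue growth factor, a matrix protein that raises collagen and fibronectin production and strengthens TGF-beta signals. Its level was 7.19 with Miglustat, 6.48 with D-PDMP, 6.52 with D-PPMP and 6.43 in Control. The Miglustat array was the highest, while D-PDMP and D-PPMP lay within 0.09 of Control, inside the measuring error. The ratio was 0.76 ± 0.20 with Miglustat, the 89th highest of 14171 genes. It was 0.05 ± 0.20 with D-PDMP and 0.09 ± 0.20 with D-PPMP.

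Ccn3 encodes NOV, which binds BMP2 and Notch1 and restrains osteoblast differentiation. Its level was 4.66 with Miglustat, 3.01 with D-PDMP, 2.95 with D-PPMP and 3.94 in Control, the widest spread of the family. The processed signals behind these levels were 4821, 1524, 1455 and 2800. The Control lay between Miglustat above it and both ceramide analogues below it. The ratios were 0.72 ± 0.20 for Miglustat, -0.93 ± 0.20 for D-PDMP and -0.99 ± 0.20 for D-PPMP. In rank, Ccn3 was the 110th highest of 14171 genes with Miglustat, the 35th lowest of 14154 with D-PDMP and the 31st lowest of 14200 with D-PPMP.

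Ccn4 encodes WISP1, a Wnt-induced protein of bone-forming cells that binds decorin and biglycan. On its brighter probe the level was 6.33 with Miglustat, 6.01 with D-PDMP, 5.80 with D-PPMP and 6.09 in Control. The ratios were 0.25 ± 0.20, -0.08 ± 0.20 and -0.29 ± 0.20 with Miglustat, D-PDMP and D-PPMP. The dimmer probe of the same accession gave 0.21, -0.16 and -0.24 in the same order, so both probes had the same signs. None of these ratios reached 1.5-fold, and D-PDMP and Control differed by 0.08, inside the measuring error.

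Ccn5 encodes WISP2, the member without the C-terminal module, which is known as a growth-restraining factor of mesenchymal and smooth muscle cells. Its level was 5.68 with Miglustat, 5.26 with D-PDMP, 5.10 with D-PPMP and 5.40 in Control. Its ratios of 0.27 ± 0.20, -0.14 ± 0.20 and -0.30 ± 0.20 had the same order over the arrays as those of Ccn4, and none reached 1.5-fold. The gap between D-PDMP and Control was 0.14, inside the measuring error. Ccn6 had processed signals of 0.97 with Miglustat, 0.98 with D-PDMP, 1.20 with D-PPMP and 1.02 in Control. These were not well above background, so no ratio is given.

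**Figure D2:**
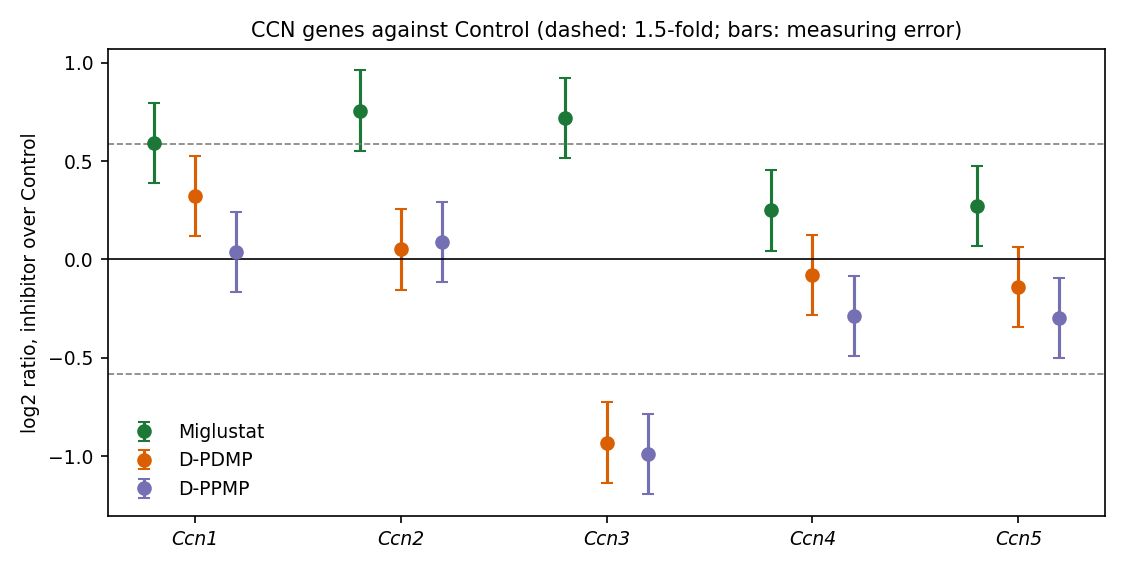
Log2 ratios of the 5 measured CCN genes, inhibitor over Control, drawn from left to right in the order Miglustat, D-PDMP, D-PPMP within each gene. Bars are the measuring error that the scanner software assigns to the 2 spots, and dashed lines mark 1.5-fold. Ccn1, Ccn2 and Ccn3 lie at or past the upper line with Miglustat (0.59, 0.76 and 0.72), and Ccn3 lies past the lower line with D-PDMP and D-PPMP (-0.93 and -0.99).

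The bars of Ccn1, Ccn2 and Ccn3 with Miglustat cross the upper 1.5-fold line. Each of these calls thus lies within the error assigned by the software of the limit. The bars of Ccn3 with D-PDMP and D-PPMP stay below the lower line. The members differed among themselves in which array set them apart. With Miglustat the 5 ratios spanned 0.51 on the log2 scale, between 0.25 for Ccn4 and 0.76 for Ccn2. The span was 1.25 with D-PDMP and 1.08 with D-PPMP, with Ccn3 at the low end of both and Ccn1 (D-PDMP) or Ccn2 (D-PPMP) at the high end. The 3 comparisons share the Control array.

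**Figure D3:**
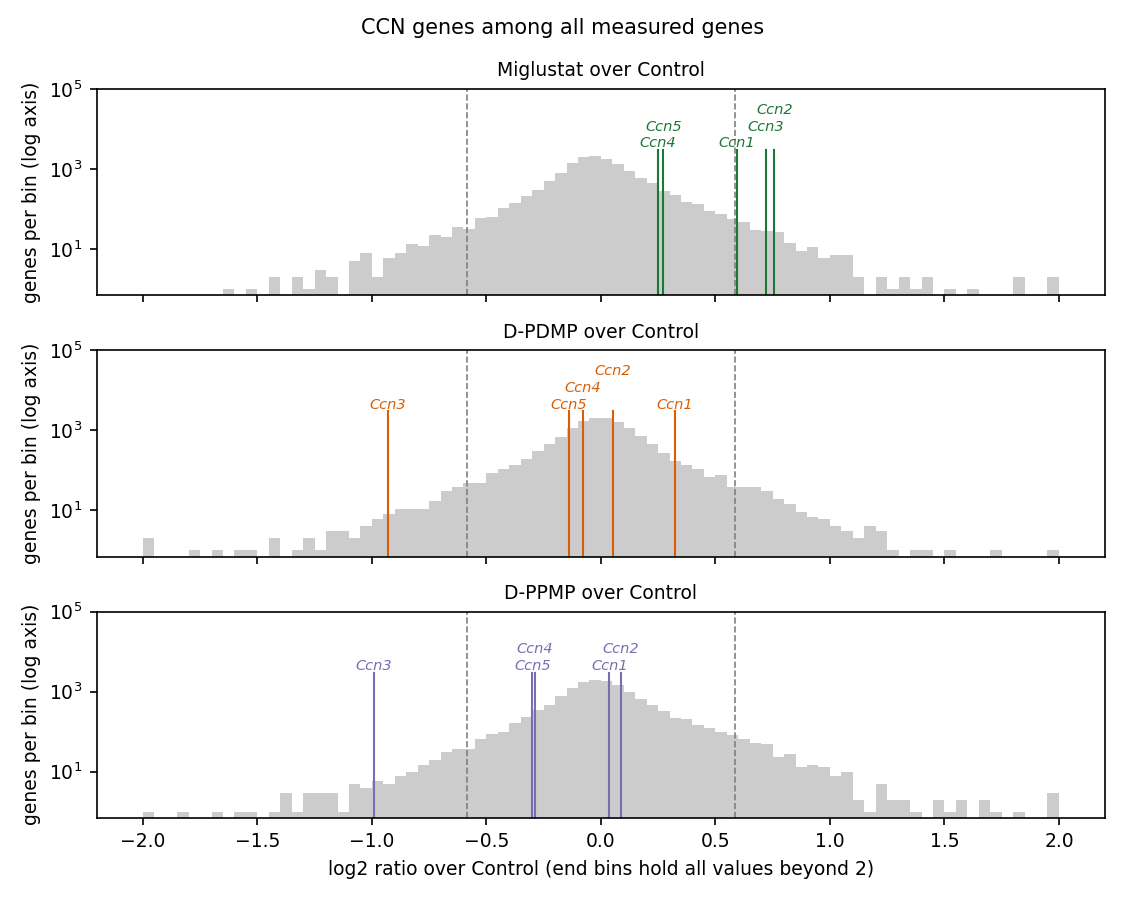
Distribution of log2 ratios over Control for all measured genes with each inhibitor (grey bars, number of genes per bin on a log axis), with the 5 measured CCN genes as coloured lines and 1.5-fold as dashed lines. With Miglustat all 5 lines lie right of 0, and with D-PDMP and D-PPMP the line of Ccn3 stands alone left of the lower limit.

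CCN proteins signal through integrins and co-receptors, and 13 of 14 such genes were measured. None was past 1.5-fold with Miglustat, where 2.68% of all genes were in either direction (2.54% for D-PDMP and 3.44% for D-PPMP). With D-PDMP 2 were higher and 11 were not past the limit, and with D-PPMP 1 was higher and 12 were not, against 1.34% and 2.27% of all genes called higher. Itgb2, the leukocyte integrin beta chain, was at 0.28, 0.71 and 1.08 with Miglustat, D-PDMP and D-PPMP, at a low level between -4.82 and -4.02 with the inhibitors and of -5.10 in Control. Notch1, the receptor bound by CCN3, was at 0.33, 0.66 and 0.52. Itgav and Itgb5, the chains of an integrin bound by CCN1 and CCN2, were at 0.26, 0.14 and 0.12 and at -0.17, 0.01 and -0.01. The list's medians were -0.04, 0.06 and 0.02.

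Among 15 growth factors and matrix proteins that bind CCN proteins, 11 were measured. With Miglustat 2 were higher and none lower, with D-PDMP 1 was higher and 3 lower, and with D-PPMP 1 was higher and 2 lower. Among all genes, 1.57%, 1.34% and 2.27% were called higher with Miglustat, D-PDMP and D-PPMP, and 1.11%, 1.2% and 1.18% lower. Bmp4, a bone morphogenetic protein, had levels of 3.27 with Miglustat, 1.97 with D-PDMP, 2.20 with D-PPMP and 2.65 in Control. Its ratios of 0.62, -0.68 and -0.45 had the signs of those of Ccn3, and its other probe gave 0.68, -0.59 and -0.29. Dcn, the proteoglycan decorin that binds CCN2 and CCN4, was at -0.38, -1.66 and -1.33. Igf2, an insulin-like growth factor, was at -0.31, -2.69 and -1.58, and Fgf2, a fibroblast growth factor, at 1.08, 0.61 and 0.80. Both had low levels. Igf2 was at -1.56 in Control, -4.25 with D-PDMP and -3.14 with D-PPMP, and Fgf2 at -4.55 in Control. The lowest level called well above background in Control was -5.24. The second probe of Igf2 gave no ratio with D-PDMP or D-PPMP, and that of Fgf2 gave none. Bmp2, Fbln1 and Acan had no array with a signal well above background, and Bmp7 had 1. The medians of the list were 0.02, -0.03 and -0.05.

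The Hippo pathway restrains YAP and TAZ, which drive Ccn1 and Ccn2 through TEAD factors. All 15 genes of this machinery were measured and none was past 1.5-fold with any inhibitor. Among all genes, the shares past it in either direction were 2.68% (Miglustat), 2.54% (D-PDMP) and 3.44% (D-PPMP). At shares this low, 15 genes can hold no call without differing from other genes, so the count does not set this list apart. Yap1 was at 0.03, 0.09 and 0.06 and Wwtr1, the gene of TAZ, at -0.04, 0.06 and 0.18. The most distant were Vgll3, a cofactor of TEAD proteins, at 0.37, -0.03 and -0.03, and Vgll4, a competitor of YAP for them, at -0.03, -0.28 and -0.30. All 20 other YAP and TAZ targets listed were measured. With Miglustat 2 were higher, 1 lower and 17 not past the limit, beside 1.57% and 1.11% of all genes called higher and lower. None was past it with D-PDMP or D-PPMP. The higher genes were F3, the tissue factor that starts coagulation, at 0.70, 0.21 and 0.08, and Tgfb2, a TGF-beta ligand, at 0.89, -0.17 and -0.36. The lower one was Nt5e, the ecto-enzyme CD73, at -1.23, -0.09 and -0.20. Ankrd1, a commonly used target, was at 0.54, 0.52 and 0.52, short of the limit with each inhibitor. The medians of these targets were 0.13, 0.07 and 0.05.

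TGF-beta is a main inducer of Ccn2 in mesenchymal cells. Of 12 ligands, receptors and Smads, all measured, Tgfb2 was past 1.5-fold with Miglustat and none with D-PDMP or D-PPMP. That Tgfb2 call is the one already given among the YAP and TAZ targets. The second probe of Tgfb2 gave 0.88, -0.29 and -0.45. Of 14 other TGF-beta and Smad targets, 1 was higher and 13 were not past the limit with Miglustat, none was past it with D-PDMP, and 1 was higher with D-PPMP. Among all genes, 2.68%, 2.54% and 3.44% were past the limit in either direction with Miglustat, D-PDMP and D-PPMP. At such shares, lists of 12 or 14 genes can hold no call or 1 call without differing from other genes. The gene called with D-PPMP was Bhlhe40, a transcriptional repressor, at -0.12, 0.50 and 0.77. The medians of the targets were 0.10, -0.01 and 0.04.

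Ccn4 is induced by Wnt through beta-catenin. Of 16 other Wnt targets only 8 were measured, and 7 others, among them Dkk1, Lgr5 and Sp5, had no array well above background, while Axin2 had 2. None was past 1.5-fold with Miglustat. Fgf18, a growth factor of skeletal tissue, was lower with D-PDMP and D-PPMP, at 0.07, -0.61 and -0.85, and the other 7 were not past the limit. Lower calls made up 1.2% of all genes with D-PDMP and 1.18% with D-PPMP, and 2.68% were past the limit in either direction with Miglustat. The medians of the 8 targets were 0.00, 0.13 and 0.17. Ccn1 is also an immediate early gene, and of 12 others 7 were higher for Miglustat, 6 for D-PDMP and 4 for D-PPMP, with none lower. Among all genes, 1.57%, 1.34% and 2.27% were called higher with Miglustat, D-PDMP and D-PPMP. The medians of these 12 early genes were 0.74, 0.65 and 0.30. Nr4a1, a nuclear receptor, was at 1.23, 1.23 and 1.20, and Egr2, an early growth response factor, at 0.75, 1.24 and 1.32. Dusp1, a phosphatase of MAP kinases, was at 1.37, 0.84 and 0.40, in the order of the Ccn1 ratios, while Egr3, of the family of Egr2, was at 1.14, 1.72 and 2.34, in the opposite order.

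**Figure D4:**
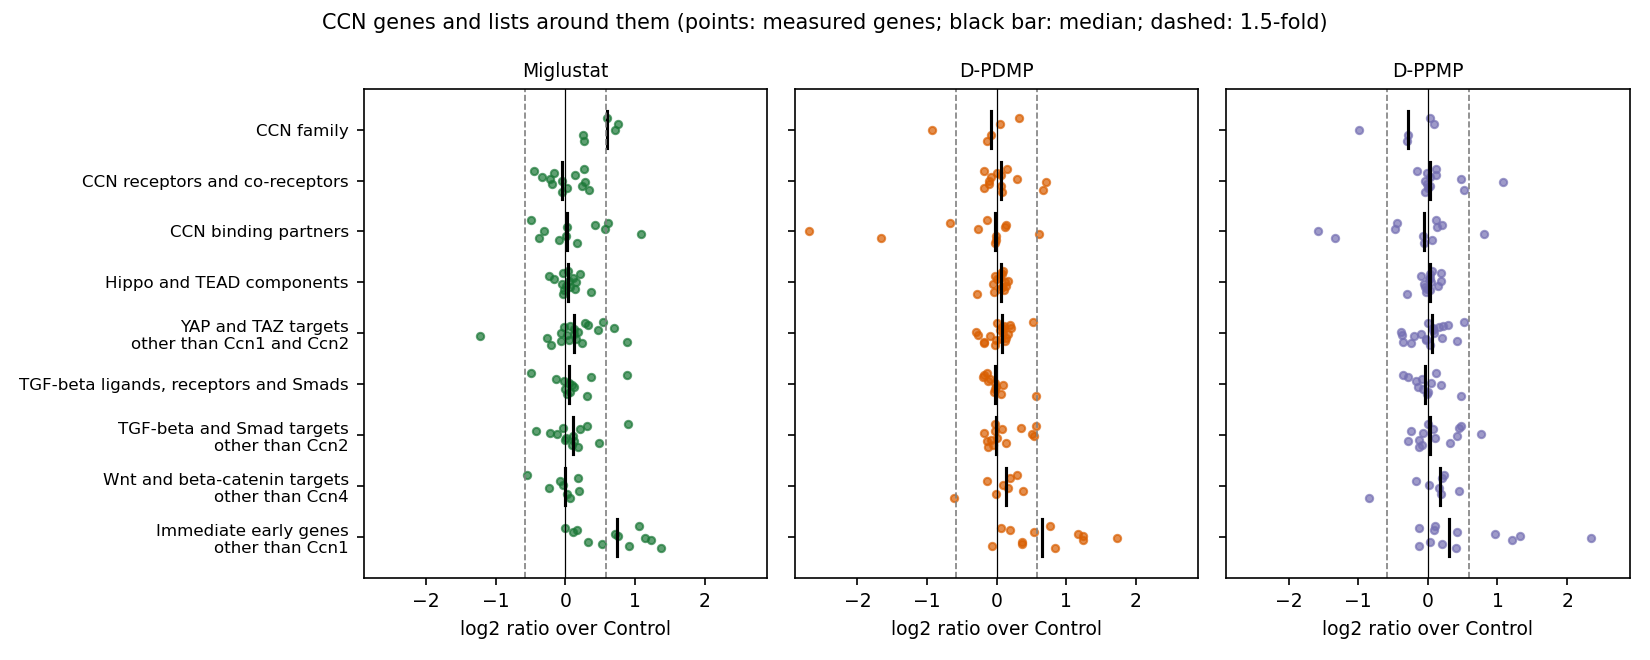
Log2 ratios over Control of the measured genes in the CCN family and in 8 lists around it, with each inhibitor; points are genes, black bars are medians and dashed lines mark 1.5-fold. The CCN median is 0.59 with Miglustat, and the immediate early genes reach past the upper line with each inhibitor. The Hippo and TEAD components lie inside the lines throughout, where most of all measured genes lie as well.

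Genes whose ratios over the 3 inhibitors lay nearest to those of each CCN gene were sought by Euclidean distance among 3233 or 3234 genes well above background on all 4 arrays with a ratio of at least 0.3 in size. The distances rest on 4 arrays that share 1 Control and are a description only. Nearest to Ccn1 were Capn9 at a distance of 0.05 and Ppp1r15a, a phosphatase subunit of the stress response, at 0.08. Nearest to Ccn2 were Hoxc4 at 0.06 and Olfr481 at 0.07, followed by the matrix protease Adamts9 at 0.09 and the flow-responsive factor Klf2 at 0.11. Few genes had ratios as large as those of Ccn3, which by itself makes such distances larger. Nearest to Ccn3 were the homeobox gene Hoxc13 at 0.34, Tafa2 at 0.38 and the neurotrophin receptor Ntrk3 at 0.38. Next were the integrin ligand nephronectin, Npnt, at 0.38 and the imprinted gene Mest at 0.41. Npnt was at 0.63, -1.23 and -1.21, and Mest at 0.44, -0.70 and -0.81. For Ccn4 the nearest candidate was Cntfr, a receptor for ciliary neurotrophic factor, at 0.04, and for Ccn5 it was Ppp2r5b at 0.04. Ccn4 and Ccn5 themselves, with largest ratios of 0.289 and 0.2997 in size, fell short of 0.3 and were not candidates. Genes with ratios no larger than theirs were left out likewise. Ppp2r5b, Fam161b, Zfp862-ps and Slc47a2 were among the 5 nearest of both Ccn4 and Ccn5, whose own ratios lay close to each other.

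The CCN genes lie apart in the genome, Ccn2 and Ccn6 on chromosome 10, Ccn3 and Ccn4 on chromosome 15, Ccn1 on chromosome 3 and Ccn5 on chromosome 2, and none is the next protein-coding gene to another. The protein-coding neighbours of Ccn1, Znhit6 and Ddah1, were at 0.05 and 0.26 with Miglustat. The neighbours of Ccn3, Mal2 and Enpp2, and Moxd1 beside Ccn2 had no array on which they were well above background. Of the neighbours of Ccn4 and Ccn5, Ndrg1 was at 0.04, -0.41 and -0.49, Ada at 0.04, -0.30 and -0.23, and Kcnk15 at 0.07, 0.52 and 0.29. None of the 7 neighbours measured was past 1.5-fold. Among all genes, 2.68%, 2.54% and 3.44% were past it in either direction with Miglustat, D-PDMP and D-PPMP. The count therefore does not set the neighbours apart from other genes.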

How the data were processed

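RNA of 4 cultures of MC3T3-E1 cells, 1 per group, was extracted with an RNeasy Plus kit and labelled with Cy3 for one-colour arrays, per the labels. The scanner files hold spot intensity values from Agilent Feature Extraction 12.1.1.1, background-subtracted but carrying no scaling from array to array, per the file headers. The deposited series matrix holds log2 values, with column medians of -4 for Miglustat, -4 for D-PDMP, -3.89 for D-PPMP and -4.1 for Control. Over 56305 probes with a single spot, it lay within 0.015 of log2 of the processed signal, floored at 1, minus the array's 75th percentile, so its scale and direction are those of the signal and genes were not centred.

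Control spots and 66 to 85 outlier spots per array were left out, spots of a probe were averaged on the log2 scale, and the 75th percentile over 56605 probes was subtracted. Probes were named by unversioned accession through a RefSeq table of GRCm38.p6: 32994 matched 22911 genes and 23611 stayed unnamed. The array design names build mm9, so the table gave names, chromosomes and order only. The promoter windows carry the coordinates of GRCm38.p6, as RefSeq gives them. A gene takes its brightest probe. Python 3.11.15, pandas 2.3.3 and, for normalizations, limma 3.58.1 were used. The step that makes the calls was run on simulated data with changes far beyond both the noise and the limit. That run checks the code only and has no bearing on the calls reported here. Bright probes with repeated spots had a median SD of 0.029 to 0.037 on the log2 scale within arrays. The alternatives were normexp (offset 50), quantile and cyclic loess normalization, a percentile over bright probes, the authors' log2 table, the mean of a gene's probes, a looser filter and a 2-fold limit. Normexp used the median spot signal, in place of the mean spot signal, which was not used here.

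The members and lists were chosen with earlier results of these data known. Named are all CCN genes, and up to 4 members of each list past 1.5-fold with any inhibitor or else the 2 most distant. Of the 5 nearest patterns of each CCN gene, some are named and some are left out. Ugcg, Gapdh, Actb and most of the osteoblast markers are named too, beside members of marker lists of 5 other cell types. Yap1, Wwtr1, Ankrd1, Itgav, Itgb5, the genes not above background, the neighbouring genes and the bright genes of the closing section were chosen after their values were seen. A gene that the rule names is not reported here. With 1 array per group, the position on the slide and the group cannot be told apart.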

Additional observations from a re-analysis of the deposited data

Results flagged for a closer look

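Ccn3, the gene of the BMP and Notch modulator NOV, stood past 1.5-fold on opposite sides of Control: its log2 ratio was 0.72 for Miglustat, -0.93 for D-PDMP and -0.99 for D-PPMP. No other CCN gene was past the limit on both sides. The difference between inhibitors was not tested, since each had 1 array and the doses differed.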

How the results depend on the processing

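Over 6 alternatives of scaling, background correction, source table and probe choice, the 15 ratios of the 5 measured CCN genes kept their sign and their side of the 1.5-fold limit in 90 of 90 values, each within the measuring error of the reported value. Many of these values could hardly differ. Averaging probes changes nothing for a gene with 1 probe, as all measured members but Ccn4 have. The authors' table held the same levels within 0.015. A percentile over bright probes shifts all ratios of an inhibitor alike, by at most 0.014. The 90 values are therefore not 90 independent checks. The Miglustat ratio of Ccn1 lay between 0.59 and 0.63, near the limit, that of Ccn2 between 0.76 and 0.82 and that of Ccn3 between 0.71 and 0.75. The ratio of Ccn3 lay between -0.95 and -0.90 with D-PDMP and between -1 and -0.91 with D-PPMP. At a 2-fold limit no CCN gene was called with any inhibitor (0, 0 and 0), and the counts over all genes were 55, 46 and 72 with Miglustat, D-PDMP and D-PPMP, against 380, 359 and 489 at 1.5-fold, since the limit is stricter. Over all genes normexp gave 53, 34 and 58 past 1.5-fold, and also taking genes well above background on only 1 of the 2 arrays gave 974, 1102 and 1427. The split of all genes into higher and lower was 223 and 157 with Miglustat, 189 and 170 with D-PDMP and 322 and 167 with D-PPMP. It turned to 139 and 201, 116 and 264, and 145 and 361 under quantile normalization, and to 157 and 207, 116 and 252, and 138 and 348 under cyclic loess. With normexp it was 39 and 14, 11 and 23, and 21 and 37. When the probes of a gene were averaged it was 274 and 161, 282 and 166, and 485 and 157 in the same order. The causes were not tested. Of 168 list medians under alternatives, 163 kept their sign, and 1 moved by more than the measuring error, that of immediate early genes with Miglustat, 0.51 with normexp against 0.74. No paired analysis was possible because the labels give no replicate numbers and each group has 1 array. Signal over background did not limit 5 of the 6 CCN genes, and it left Ccn6 without a ratio.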

Other observations

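Among 2817 genes whose brightest probe had a mean level at least that of Ccn3, a set chosen after the values were seen, few were past 1.5-fold: 11 higher and 3 lower with Miglustat, 3 higher and 2 lower with D-PDMP, and 5 higher and 6 lower with D-PPMP. With Miglustat the higher genes included Ccn1, Ccn2 and Ccn3, the retinoic acid hydroxylase Cyp26b1 at 1.01, the natriuretic peptide receptor Npr3 at 0.91, the matricellular thrombospondin Thbs1 at 0.82, the hyaluronan-degrading Cemip at 0.75, Egr1 at 0.72, the pentraxin Ptx3 at 0.72 and tissue factor F3 at 0.70. The 3 lower ones were the corneodesmosin gene Cdsn at -1.04, the chaperone gene Calr at -0.85 and osteopontin, Spp1, at -0.66. With D-PDMP the lower genes were Ccn3 and Pappa2, a protease of insulin-like growth factor binding proteins, at -0.69, and the higher ones were Egr1 at 1.17, the water channel gene Aqp1 at 0.70 and the kinase gene Sgk1 at 0.65. With D-PPMP the lower genes were Cdsn at -1.1, Ccn3, Timp3 at -0.92, Pappa2 at -0.74, Col5a1 at -0.65 and Rflnb at -0.61. The higher ones were Egr1 at 0.96, Sgk1 at 0.86, Aqp1 at 0.83, Zfp36l2 at 0.76 and the phosphatase gene Dusp6 at 0.59. Brightness is a property of the probe as well as of the transcript, so this set is not one of equal abundance.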
